A study of Mus musculus with 12 samples.

Results

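The transcripts described here are the intergenic long non-coding RNAs (lincRNAs) that the authors assembled from their own reads. They are the 2847 transcripts of 2569 loci that carry the type lincRNA in the deposited table of 5602 assembled long non-coding RNA (lncRNA) transcripts. All 3 deposited tables together hold 65500 transcripts. The deposited type alone chose the members, and no measured value entered the choice. A single locus, XLOC_000066, far exceeded all the others and is reported apart from them, which leaves 2846 transcripts in 2568 loci.

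RNA came from C57BL/6 mice, an inbred laboratory strain, that were 8 weeks old and are called wild type in the series' design text. Libraries were made from trigeminal ganglia (TG), where the sensory neurons of face and jaw have their cell bodies, and from the spinal trigeminal nucleus caudalis (Sp5C). The latter lies in the brainstem, and pain and temperature fibres from those ganglia end in it. The series concerns long-lasting inflammatory pain of the jaw joint, and the sample titles form 4 groups of 3 libraries each, STG, CTG, SSp5C and CSp5C. No label gives a treatment or explains the letters S and C, so both are kept as plain letters and C is always compared with S. Whether a library stands for 1 animal or a pool, and whether replicates are separate animals, is not labelled. A p-value therefore measures only the spread between these libraries, which may be technical.

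LincRNAs are transcribed from the stretches between protein-coding genes and have no long open reading frame. Many are spliced and capped like messenger RNA, yet they are usually less abundant and more restricted to particular tissues and cell types, in the nervous system as elsewhere. An assembler builds a transcript model from overlapping aligned reads, and where it builds several models for a locus, the reads that fit more than one are shared out among them by an estimate. Positions and sequences of the assembled models were not used here, so each member is identified by its transcript number (LNC) and its locus number (XLOC) alone, and no function is attributed to any of them.

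The tissue labels went with most marker genes of these tissues, but not with those of satellite glia. Of 21 sensory neuron markers 20, and of 9 Schwann cell markers 9, were higher in every TG library than in any Sp5C library, while 6 of 6 inhibitory transmission and 6 of 6 astrocyte markers were higher in every Sp5C library. Of 37 hindbrain and dorsal horn markers, 32 were higher in every Sp5C library and 2 in every TG library. The 4 satellite glia markers split, 2 higher in every TG and 2 in every Sp5C library, with sums of 1257 to 1682 FPKM in TG and 2062 to 2990 FPKM in Sp5C. STG replicate 1 stood apart with a summed level of 2874 FPKM over 8 pituitary genes, against 2.57 to 51.7 in the other TG libraries, and CTG replicates 1 and 3 with 872 and 292 FPKM over 9 granulocyte and bone marrow genes, against 3.97 to 33.5 in the other TG libraries. FPKM, fragments per kilobase of transcript scaled to the size of the library, keep no read number. The commonest step among low values of annotated transcripts, as FPKM multiplied by length in kilobases, was 0.0315 (CTG replicate 3) to 0.0442 (CSp5C replicate 3). If 1 step was 1 fragment, 0.5 FPKM would be 11.3 to 15.9 fragments per kilobase. Only 14.4% to 22.1% of low values fell on whole steps within 0.01 of a step, so fragment numbers were not recovered and the depth stays uncertain.

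Most members were scarce. Outside XLOC_000066 the median transcript had a mean level of 0.120 FPKM over the 12 libraries, with quartiles at 0.0554 and 0.261 FPKM. A mean of at least 0.5 FPKM was reached by 300 of the 2846 transcripts (10.5%), at least 1 FPKM by 94, at least 10 FPKM by 16 and at least 100 FPKM by 3. The transcripts next to the minimum of 0.5 FPKM used for testing had means of 0.4996 and 0.5008 FPKM. Detection was patchy as well. A value above 0 in every library was listed for 655 transcripts (23.0%), and for 337 a value above 0 was listed in 1 library only. Between 1597 and 1754 members were above 0 in a TG library and between 1515 and 1571 in an Sp5C library, so the tissues did not overlap in this number. Above 0 in all 6 TG libraries and listed at 0 in all 6 Sp5C libraries were 70 members, and 19 showed the reverse. Among the 2755 other assembled transcripts, which are intronic or antisense, these numbers were 20 and 11. An exact 0 in such a table can be a failed estimate, so these members are described only as listed at 0.

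XLOC_000066 was the most abundant feature of the assembled table by a wide margin. Its only transcript, LNC_000003, stood at 106263, 152952 and 152116 FPKM in STG replicates 1, 2 and 3, and at 174082, 162601 and 155537 FPKM in CTG. In SSp5C it stood at 211476, 128152 and 124939 FPKM, and in CSp5C at 136108, 150424 and 146191 FPKM. It thus held 25.8% to 41.3% of the summed FPKM of all 3 tables in a library. The other 2846 lincRNA transcripts together held 0.413% to 0.634%. FPKM are divided by transcript length, which is not known here for LNC_000003, so these are not shares of reads or of RNA mass. STG replicate 1 had the lowest and SSp5C replicate 1 the highest level, and the tissues overlapped. TG exceeded Sp5C by 0.02 on the log2 scale (SE 0.15, two-sided exact permutation test, p = 0.907, n = 6 libraries per tissue). All 3 CTG libraries lay above all 3 STG libraries, by 0.28 on the log2 scale (SE 0.18, exact permutation p = 0.1, which is the smallest that 3 libraries against 3 allow). Without STG replicate 1 this difference was 0.10. CSp5C and SSp5C overlapped, with a log2 difference of -0.06 (SE 0.25, exact permutation p = 1), which became 0.19 without SSp5C replicate 1. None of the 3 comparisons passed a threshold of 0.05.

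**Figure D1:**
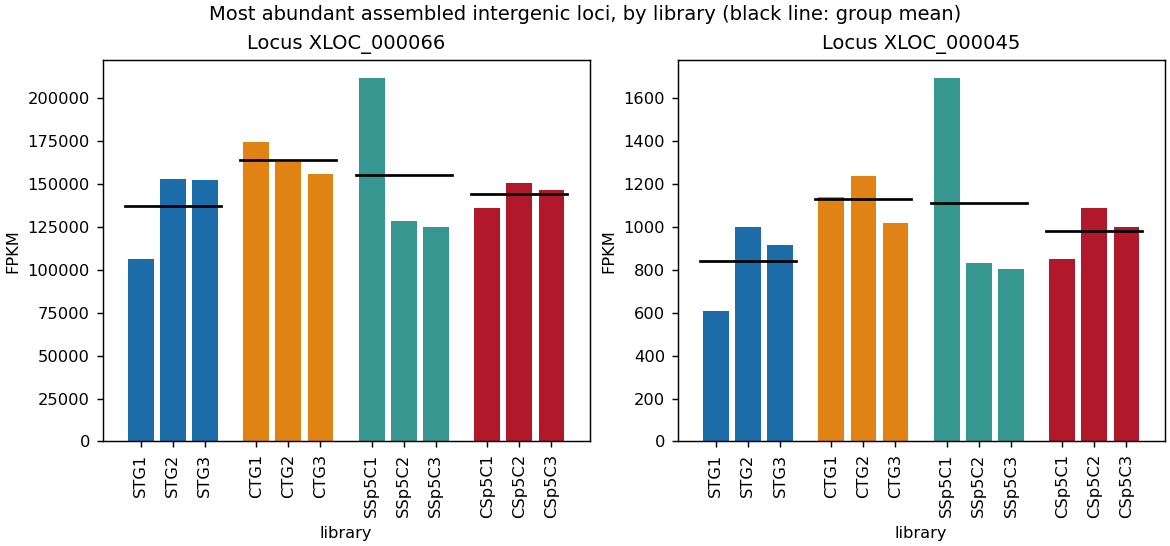
FPKM (y axis, linear) of the loci XLOC_000066 (left) and XLOC_000045 (right) in each of the 12 libraries (x axis), with bars coloured by group and a black line at each group's mean. Both loci were lowest in STG replicate 1 and highest in SSp5C replicate 1.

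The second most abundant locus, XLOC_000045, also had 1 transcript (LNC_000002), at a far lower level. It was listed at 610, 999 and 915 FPKM in STG, 1137, 1236 and 1016 FPKM in CTG, 1692, 833 and 805 FPKM in SSp5C, and 850, 1089 and 1000 FPKM in CSp5C. Its level was 0.574% to 0.800% of that of XLOC_000066, and both loci rose and fell together from library to library. Over the 12 libraries their log2 levels correlated with Pearson's r = 0.969 and Spearman's rho = 0.916 (permutation p = 2e-05 and 0.00014, adjusted over 12 relations 0.00024 and 0.00168). Without the libraries farthest from the median, STG replicate 1 and SSp5C replicate 1, r was 0.888. Within TG r was 0.957 and rho 0.943 (exact permutation p = 0.025 and 0.0167, n = 6), and within Sp5C r was 0.993 and rho 1 (exact permutation p = 0.00278 for both, n = 6). For LNC_000002 neither the tissues (log2 difference -0.07, SE 0.23, adjusted p = 0.872) nor CTG and STG (0.45, SE 0.25, adjusted p = 0.436) differed past the threshold in limma, although all CTG libraries were above all STG libraries. Both levels share the library and its FPKM scale.

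The next loci by level were assembled into several transcripts, and the level moved between these from library to library. XLOC_023887 held 8 transcripts with a summed level of 723, 506 and 164 FPKM in STG, 143, 54.3 and 298 FPKM in CTG, 622, 365 and 715 FPKM in SSp5C, and 535, 584 and 779 FPKM in CSp5C. In different libraries 5 of the 8 transcripts were the highest. LNC_000597, for example, was listed at 395 FPKM in STG replicate 2 and at 0 in the other STG libraries, where LNC_000596 (350 FPKM, replicate 1) and LNC_000595 (126 FPKM, replicate 3) led. LNC_000598 led with 360 FPKM in SSp5C replicate 2 and 448 FPKM in CSp5C replicate 1, but stood at 0.0736 to 25.01 FPKM in the remaining libraries. Of the 96 values of this locus 33 were listed at 0. Within groups, the log2 level of its median transcript had an SD of 3.15, and that of the locus sum an SD of 0.88.

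**Figure D2:**
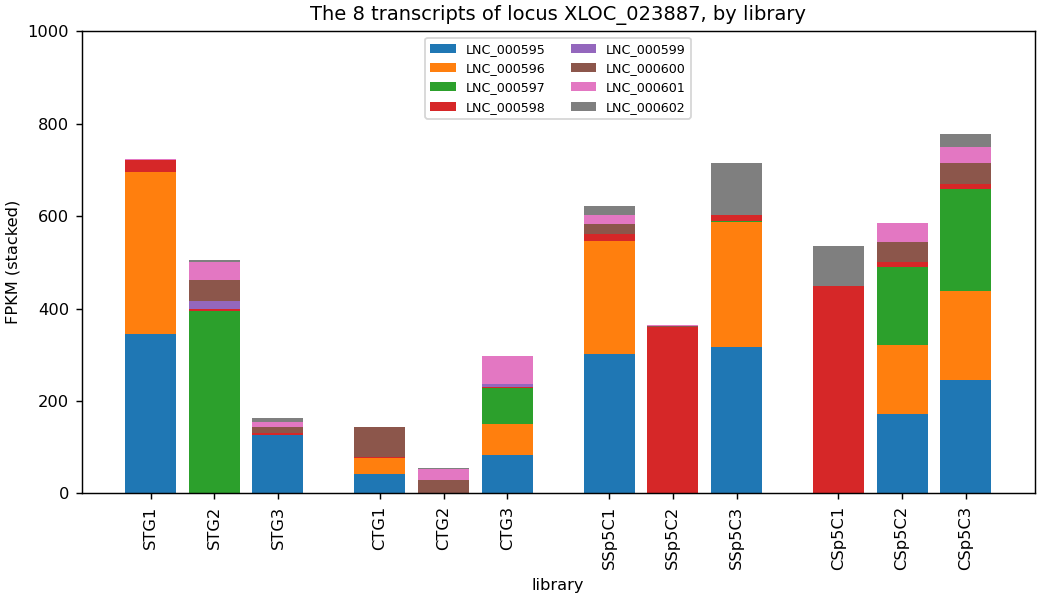
Stacked FPKM (y axis) of the 8 assembled transcripts of locus XLOC_023887 in each library (x axis), 1 colour per transcript. The transcript that made up most of the bar changed between libraries of the same group, while the bar's height ranged from 54.3 to 779 FPKM.

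XLOC_018383 behaved alike, with 4 transcripts that each led in some library and a sum of 199, 142 and 12.5 FPKM in STG, 204, 2.58 and 30.6 FPKM in CTG, 189, 33.3 and 124 FPKM in SSp5C, and 75.1, 84.4 and 151 FPKM in CSp5C. The spread of the tested members followed the same divide. The within-group SD of log2(FPKM + 0.5) had a median of 0.22 over 199 transcripts from loci with 1 assembled transcript, of 0.59 over 101 transcripts from loci with more, and of 0.30 over the 55 sums of those loci. For transcripts of multi-transcript loci, the locus sum is given below where it changes the size of the spread or the separation of the groups. Among all loci outside XLOC_000066, 176 held 2 or more lincRNA transcripts and the fullest held 18.

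Members differed between the tissues in both directions. Of the 300 lincRNA transcripts tested, 45 were higher and 56 lower in TG than in Sp5C (limma on log2(FPKM + 0.5), adjusted p under 0.05 over all assembled transcripts). That is 33.7% of the members, beside 35.7% of the 465 assembled transcripts of any type, of which 14.4% were higher and 21.3% lower. At an unadjusted p under 0.05 there were 122 members (40.7%), beside 42.4% of all assembled transcripts. A difference of at least 1 on the log2 scale was found for 17 of the higher and 27 of the lower members. Among all 465 assembled transcripts tested these numbers were 27 and 39. The libraries of both tissues did not overlap for 29 members with higher and 35 with lower TG levels, where 21.5% of all assembled transcripts tested did not overlap. The median difference over the 300 members was -0.05. With locus sums in place of transcripts, 63 loci were higher and 64 lower among 287 tested, and the share of all assembled loci is not given. In bulk tissue, more cells of a type and more RNA per cell cannot be told apart, which holds for every tissue difference below.

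The members higher in TG included several that were listed at 0 throughout Sp5C. LNC_004220 ranged in TG from 1.28 to 4.23 FPKM (median 3.19) and was listed at 0 in all 6 Sp5C libraries. The sum of its locus, at 3.496 to 5.497 FPKM in TG, varied less and was likewise listed at 0 in Sp5C. LNC_004325, at 0.800 to 1.40 FPKM (median 1.07), and LNC_003025, at 0.618 to 1.36 FPKM (median 1.16), were also listed at 0 in every Sp5C library. No TG library was at 0 for any of these 3 transcripts. Transcripts of this kind reached the minimum level through the high tissue alone and so had to differ, and no p is given for them. With transcripts listed at 0 in all 3 libraries of any of the 4 groups left out, limma called 94 of 282 members (33.3%). Of these, 40 were higher and 54 lower in TG, and the share of all assembled transcripts in that fit is not given. LNC_004142 was close to them, at 0.318 to 2.002 FPKM in TG (median 1.02) and above 0 in a single Sp5C library, CSp5C replicate 3, at 0.0307 FPKM. Its locus sum, 2.56 to 4.10 FPKM in TG, varied less than the transcript.

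LNC_001687 was at 1.28 to 2.60 FPKM in TG (median 2.40) and at 0.110 to 0.203 FPKM in Sp5C, a difference on the log2(FPKM + 0.5) scale of 2.07 (SE 0.13). Its lowest TG value came from CTG replicate 2, where the sum of its locus, 2.78 FPKM, was the highest of all. LNC_004174, with 0.949 to 1.86 FPKM in TG against 0.0248 to 0.0720 FPKM in Sp5C, and LNC_002235, with 0.837 to 1.47 against 0.0288 to 0.0885 FPKM, each came from a locus with 1 assembled transcript. Their differences were 1.64 (SE 0.11) and 1.52 (SE 0.10). Both of them and LNC_001687 were under the minimum of 0.5 FPKM in every Sp5C library. They too reached it through TG alone, so no p is given for them. LNC_001715 was abundant enough to be seen in both tissues, at 2.40 to 3.67 FPKM in TG and 0.594 to 1.06 FPKM in Sp5C (difference 1.36, SE 0.10, adjusted p = 3.6e-06).

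LNC_005461 was higher in TG (difference 2.28, SE 0.31), but unevenly so. Its mean in Sp5C, 0.284 FPKM, was under the minimum level, so no p is given for it. It stood at 10.2, 3.19 and 2.74 FPKM in STG, at 2.64, 2.48 and 1.33 FPKM in CTG, and at 0 to 0.685 FPKM in Sp5C. The sum of its locus was also highest in STG replicate 1, at 16.1 FPKM against 2.515 to 5.21 FPKM in the other TG libraries. The highest value came from STG replicate 1, the library with the high pituitary genes, and the difference was 2.01 without it. LNC_003701, LNC_001496 and LNC_000226 completed the 12 highest, with differences of 1.95, 1.44 and 1.42. Of these, LNC_003701 was at 0.727 FPKM in CTG replicate 3 against 3.05 to 5.28 FPKM in the other TG libraries, and LNC_000226 reached 1.298 FPKM in CSp5C replicate 2, close to its lowest TG value of 1.326 FPKM.

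Of the members lower in TG, LNC_005523 had by far the highest level in Sp5C. It stood at 16.0, 16.5 and 20.9 FPKM in SSp5C and at 11.3, 15.1 and 36.9 FPKM in CSp5C, against 0 to 2.06 FPKM in TG (difference -3.56, SE 0.44, adjusted p = 0.00013). LNC_000811 followed with 6.17 to 9.70 FPKM in Sp5C (median 8.17) against 0.544 to 1.32 FPKM in TG (difference -2.43, SE 0.18, adjusted p = 3.8e-06). Neither had a TG library within the Sp5C range. LNC_003779, at 2.96 to 5.90 FPKM in Sp5C and 0.628 to 1.47 FPKM in TG, was the only other of the 12 lowest above 2 FPKM in every Sp5C library (difference -1.59, SE 0.20, adjusted p = 0.00013).

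LNC_004700 reached the minimum level through Sp5C alone, so no p is given for it. It stood at 1.63, 1.64 and 1.47 FPKM in SSp5C and at 1.46, 1.61 and 2.06 FPKM in CSp5C, highest in CSp5C replicate 3. In TG it was at 0 to 0.126 FPKM (difference -1.99, SE 0.08). The sum of its locus ranged wider in Sp5C, from 1.49 to 2.82 FPKM. LNC_001198 (1.10 to 1.96 FPKM in Sp5C, 0 to 0.197 FPKM in TG), LNC_003296 (1.48 to 2.26 and 0.212 to 0.340 FPKM) and LNC_004706 (1.58 to 2.35 and 0.142 to 0.591 FPKM) also stayed above 1 FPKM in every Sp5C library. Their differences were -1.86, -1.59 and -1.57. Their means in TG were under the minimum level as well, so no p is given for them. The other 5 of the 12 lowest had wider ranges within Sp5C. LNC_001272 ranged from 0.572 to 2.90 FPKM, LNC_002333 from 0.330 to 2.49 FPKM, LNC_001767 from 0.200 to 2.71 FPKM and LNC_003561 from 0.162 to 2.75 FPKM. For each of these 4 the lowest or second lowest Sp5C value came from CSp5C replicate 1. LNC_001426, at 1.51 to 6.43 FPKM in Sp5C, was highest in SSp5C replicate 1. The locus sum of LNC_001767 was far steadier than the transcript, at 3.35 to 4.52 FPKM in Sp5C and 0.697 to 1.59 FPKM in TG.

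**Figure D3:**
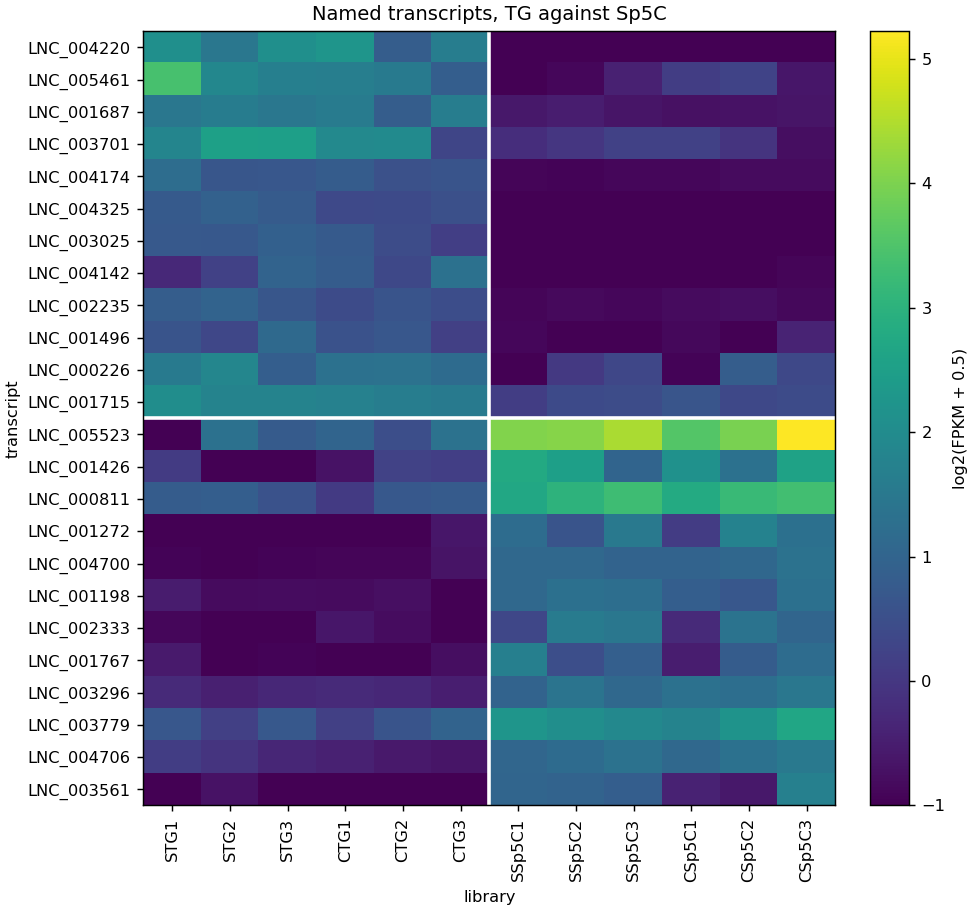
Level of the 12 transcripts with the highest (upper block) and the 12 with the lowest (lower block) difference between TG and Sp5C, as log2(FPKM + 0.5) in each library (columns), where the darkest colour, -1, is a transcript listed at 0. No TG library overlaps the Sp5C libraries in any of the 24 rows, and the rows LNC_005461 and LNC_005523 show the largest single values, in STG replicate 1 and CSp5C replicate 3.

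The tissue counts depended on which letter was compared. Within the S libraries 69 of 323 members tested were higher and 32 lower in TG (31.3% called). Within the C libraries 14 of 269 were higher and 33 lower (17.5%). The share of all assembled transcripts in these fits is not given, so the dependence cannot be called particular to the members. Annotated lncRNA also shifted with the letter, by a median C minus S difference of -0.23 in TG and 0.13 in Sp5C. The median difference over the members tested was 0.20 among S and -0.25 among C libraries. In the C libraries alone, LNC_003701, LNC_000226 (limma, adjusted p = 0.128), LNC_002333, LNC_001767 and LNC_003561 no longer passed. All of these but LNC_000226 reached the minimum level through a single tissue, so no p is given for them. The other 16 of the 21 named transcripts that could be fitted passed again in the same direction. They were named for passing without overlap in libraries that include these, so passing again is no support. Scaled to a common median over assembled transcripts, the 12 libraries gave 55 higher and 52 lower members, again without that share over all assembled transcripts.

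Few of the most abundant members were called. Of the 23 members with a mean of at least 5 FPKM, limma called 2, LNC_005523 and LNC_000030. The model draws each variance towards the trend with level, and at these levels many members, such as the transcripts of XLOC_023887, varied widely within groups. LNC_001873 had 8.78 to 12.9 FPKM in TG and 14.7 to 17.1 FPKM in Sp5C, without overlap, yet its difference of -0.57 had an SE of 0.47 (adjusted p = 0.418). LNC_002028, with 21.2 to 27.4 FPKM in TG (median 24.9) and 15.9 to 21.7 FPKM in Sp5C (median 17.1), overlapped at the margin and had a difference of 0.45 with an SE of 0.81. Fitted without the trend and robust moderation, these SE were 0.09 and 0.10, both transcripts passed (adjusted p = 0.00091 and 0.0052), and 5 of the 23 members were called. LNC_003445, a transcript of a locus with 3, stood at 7.97 to 13.3 FPKM in TG and 9.997 to 15.7 FPKM in Sp5C and passed in neither fit.

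Annotated lincRNAs gave more calls between the tissues. In a fit of assembled and annotated lncRNA together, 106 of the 300 assembled lincRNA transcripts passed (35.3%), beside 226 of 374 annotated lincRNA transcripts (60.4%). Among transcripts with a mean of 0.5 to 1 FPKM the shares were 35.4% and 62.1%, among those with 1 to 2 FPKM 37.0% and 49.6%, and among those with 2 FPKM or more 33.3% and 68.6%. The gap was narrowest at 1 to 2 FPKM, and the difference between the classes was not tested.

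Between CTG and STG no lincRNA transcript passed. limma called 0 of 339 members and 0% of all 498 assembled transcripts tested, with a smallest adjusted p of 0.265. At an unadjusted p under 0.05 there were 62 members, of which 3 were higher and 59 lower in CTG. That is 18.3% of the members, beside 15.1% of all assembled transcripts. The 3 CTG libraries lay above all STG libraries for 7 members and below them for 98, together 31.0%, beside 25.9% of all assembled transcripts. The granulocyte and bone marrow genes, at 872, 12.2 and 292 FPKM in CTG replicates 1, 2 and 3, were above their highest STG sum of 33.5 FPKM in replicates 1 and 3, and their part in these counts was not tested. The median difference over the members was -0.22, and 251 of 339 (74.0%) were below 0. Over all assembled transcripts the median was -0.17, and 72.3% were below 0. With limma fitted on all 12 libraries, 8 of the 339 members passed (2.36%), 1 higher and 7 lower in CTG. The share of all assembled transcripts in this fit is not given. For every passing member but LNC_003208, no Sp5C library was above 0.327 FPKM, and these libraries enter the variance too. All of them but LNC_003208 and LNC_004325 had a mean under the minimum level in CTG or in STG.

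LNC_005244 had the smallest p. It stood at 1.46, 1.02 and 1.52 FPKM in STG and at 0.303, 0.423 and 0.461 FPKM in CTG (difference -1.03, SE 0.15, adjusted p = 0.265). It passed in the fit of all 12 libraries. The Sp5C libraries, 5 of them listed at 0 and the sixth at 0.111 FPKM, also enter the variance there. LNC_005244 reached the minimum level through STG alone, with a CTG mean of 0.395 FPKM, so no p of that fit is given. Its locus as a whole did not follow, since the sum was 1.68, 1.19 and 1.67 FPKM in STG but 4.51, 0.526 and 0.529 FPKM in CTG, a difference of -0.20 (adjusted p = 0.881). CTG replicate 1, the library with the highest granulocyte genes, was thus the lowest for the transcript and the highest for the locus.

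LNC_002902, the only transcript of its locus, was at 1.69, 0.828 and 1.37 FPKM in STG and at 0.264, 0.190 and 0.347 FPKM in CTG (difference -1.20, SE 0.21, adjusted p = 0.265). It passed in the fit of all 12 libraries, but its CTG mean, 0.267 FPKM, was under the minimum level, so no p of that fit is given. LNC_003358 (0.677 to 0.845 FPKM in STG, 0.428 to 0.473 FPKM in CTG), LNC_004116 (0.699 to 0.861 and 0.473 to 0.488 FPKM) and LNC_003211 (1.15 to 1.20 and 0.635 to 0.760 FPKM) differed by -0.40, -0.41 and -0.48, each with an adjusted p of 0.265. Within each of these groups the values lay close together and did not overlap with the other group. The CTG means of LNC_003358 and LNC_004116, 0.452 and 0.4805 FPKM, were under the minimum level as well. In the fit of all 12 libraries LNC_003208 passed as well, with 2.17 to 2.41 FPKM in STG, 1.21 to 1.49 FPKM in CTG and 0.606 to 0.863 FPKM in Sp5C (difference -0.57, SE 0.10, adjusted p = 0.033). So did LNC_004325, one of the transcripts listed at 0 in Sp5C, with 1.21, 1.40 and 1.22 FPKM in STG and 0.800, 0.811 and 0.931 FPKM in CTG (difference -0.40, adjusted p = 0.038). LNC_001309, LNC_001648 and LNC_001751 were the others, with differences of -0.54, -0.74 and -0.70.

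LNC_000200 was the highest of the few in the other direction. It stood at 0.191, 0.114 and 0.346 FPKM in STG and at 1.34, 0.739 and 0.784 FPKM in CTG (difference 1.01, SE 0.22, adjusted p = 0.265). It passed in the fit of all 12 libraries, but its STG mean, 0.217 FPKM, was under the minimum level, so no p of that fit is given. In Sp5C it was above 0 in CSp5C replicate 2 only, at 0.0219 FPKM. LNC_002798 (0.436 to 0.615 FPKM in STG, 0.702 to 0.735 FPKM in CTG), LNC_005595 (0.560 to 1.14 and 1.15 to 1.80 FPKM) and LNC_002880 (0.492 to 0.552 and 0.563 to 0.697 FPKM) had differences of 0.27, 0.47 and 0.15 and did not pass in either fit.

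Between CSp5C and SSp5C the members leaned the other way, and again none passed. limma called 0 of 311 members and 0% of all 499 assembled transcripts, with a smallest adjusted p of 0.755. At an unadjusted p under 0.05 there were 13 members, 11 higher and 2 lower in CSp5C, which is 4.18% beside 5.01% of all assembled transcripts. The groups did not overlap for 35 members with higher and 8 with lower CSp5C levels, together 13.8% beside 13.2%. The median difference was 0.13, and 31.2% of the members were below 0, beside 0.10 and 35.9% over all assembled transcripts. In the fit of all 12 libraries limma also called 0, with 26 at an unadjusted p under 0.05. Without CSp5C replicate 1, a single member passed, LNC_000476 of XLOC_018383. It was listed at 0 in all SSp5C libraries and in CSp5C replicate 1, and at 41.9 and 57.7 FPKM in the other CSp5C libraries. Through those libraries alone it reached the minimum level, and it had no spread in SSp5C, so no p is given for it. The sums of its locus overlapped, at 33.3 to 189 FPKM in SSp5C and at 84.4 and 151 FPKM in CSp5C replicates 2 and 3.

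LNC_004808 had the smallest p here. It stood at 2.18, 1.26 and 1.13 FPKM in SSp5C and at 3.98, 3.00 and 2.96 FPKM in CSp5C (difference 0.94, SE 0.25, adjusted p = 0.755), and the sum of its locus, at 1.78 to 2.28 and 3.94 to 4.38 FPKM, kept the groups apart. In TG the same transcript was highest in STG replicate 1, at 4.78 FPKM, and at 1.31 to 2.03 FPKM in the other libraries. LNC_004985 (0.295 to 0.425 FPKM in SSp5C, 0.598 to 0.867 FPKM in CSp5C), LNC_005437 (0.490 to 0.532 and 0.685 to 1.11 FPKM) and LNC_002691 (0.444 to 0.476 and 0.617 to 0.802 FPKM) also had groups that did not overlap, with differences of 0.49, 0.52 and 0.31. The sums of the locus of LNC_005437 overlapped, at 1.02 to 1.658 FPKM in SSp5C and 1.655 to 2.135 FPKM in CSp5C. On the lower side were LNC_004069 (2.27 to 4.2 and 0.411 to 1.82 FPKM, difference -1.29), LNC_005321 (0.620 to 1.32 and 0.00524 to 0.572 FPKM, difference -1.10) and LNC_002626 (1.19 to 1.34 and 0.462 to 1.06 FPKM, difference -0.49). Their adjusted p were 0.755, 0.755 and 0.770. The locus sums of LNC_005321 overlapped as well, at 0.620 to 1.54 FPKM in SSp5C and 0.00524 to 1.60 FPKM in CSp5C, whereas those of LNC_002626, at 1.81 to 2.004 and 0.675 to 1.37 FPKM, did not.

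The C minus S effects of both tissues were compared directly over all 12 libraries. limma called 0 of 300 members and 0% of all 465 assembled transcripts, with a smallest adjusted p of 0.159, and 63 had an unadjusted p under 0.05, all of them with a lower effect in TG. That is 21% of the members beside 16.1% of all assembled transcripts. The median difference of effects was -0.34, and 79.7% of the members were below 0, beside -0.27 and 74.6% over all assembled transcripts. LNC_005403 was the lowest named. It stood at 1.39, 1.03 and 0.828 FPKM in STG, 0.407, 0.648 and 0.499 FPKM in CTG, 0.225, 0.306 and 0.412 FPKM in SSp5C and 0.351, 0.668 and 0.664 FPKM in CSp5C (difference of effects -0.9998, SE 0.24, adjusted p = 0.159). LNC_000235 (-0.94, SE 0.22) and LNC_003295 (-0.56, SE 0.13) had the same adjusted p. All 3 were lower in every CTG than in every STG library, and for LNC_003295 and LNC_000235 every CSp5C library was above every SSp5C library. LNC_000038, LNC_003849 and LNC_001478 had the smallest p in the other direction, with differences of effects of 0.81, 0.30 and 0.28 and adjusted p of 0.352 for each. The sum of the locus of LNC_000038, XLOC_000466, gave -0.39 instead.

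These leanings were shared by the class as a whole, library by library. The median deviation of the 300 members from their mean over 12 libraries was 0.13, 0.06 and 0.02 on the log2 scale in STG and -0.13, -0.12 and -0.19 in CTG. It was -0.12, -0.08 and -0.003 in SSp5C and -0.07, 0.11 and 0.20 in CSp5C. STG lay above CTG without overlap, whereas SSp5C and CSp5C overlapped through CSp5C replicate 1. The highest value of a member came from CSp5C replicate 3 in 87 cases and from STG replicate 1 in 61 of the 300. Protein-coding genes stayed within -0.03 and 0.04 in every library.

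Annotated lncRNA moved with the members. Their median deviation over the 12 libraries correlated with that of the assembled lincRNA with r = 0.902 and rho = 0.881 (permutation p = 0.0001 and 0.00034, adjusted 0.0006 and 0.00204), with r = 0.947 when STG replicate 1 and SSp5C replicate 1 were left out. Within TG r was 0.972 (exact permutation p = 0.0111, n = 6) and within Sp5C 0.950 (exact permutation p = 0.00278, n = 6). The median C minus S difference in TG was -0.23 over 1522 annotated lncRNA transcripts, 82.5% of them below 0, and -0.13 over 338 annotated lincRNA transcripts. It was -0.12 over 102 antisense and -0.06 over 56 intronic assembled transcripts, and -0.01 over 12910 protein-coding genes. In Sp5C it was 0.13 over the members and 0.13 over annotated lncRNA. It was smaller there over annotated lincRNA (0.06) and over antisense (0.05) and intronic (0.006) assembled transcripts. All these values are relative to the rest of the same library. Scaled to a common median over assembled transcripts, the median difference was -0.03 in TG and -0.002 in Sp5C, 33 and 16 members had an unadjusted p under 0.05, and still limma called 0 in both.

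**Figure D4:**
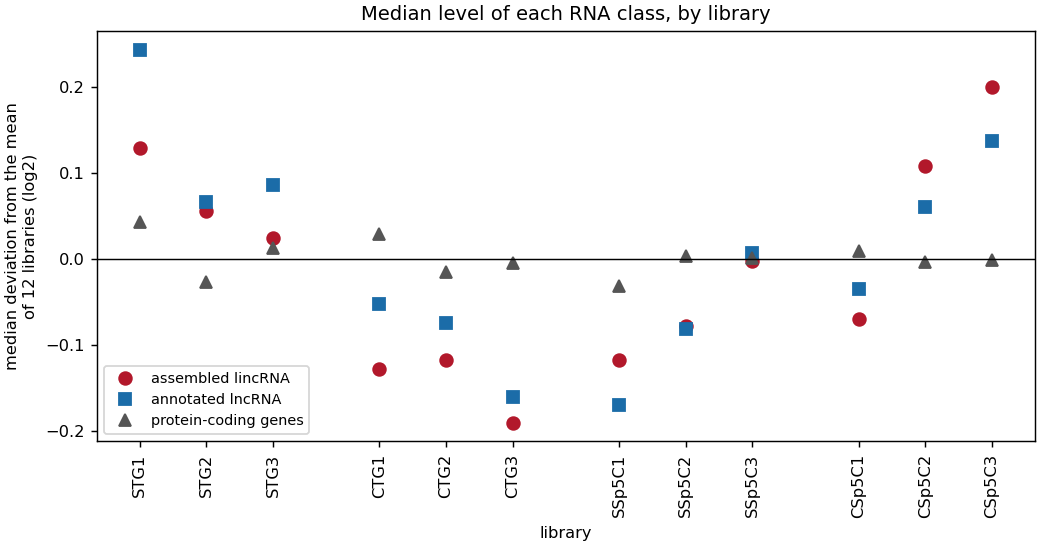
Median deviation (log2, y axis) of assembled lincRNA (circles), annotated lncRNA (squares) and protein-coding genes (triangles) from each feature's mean over the 12 libraries, by library (x axis). The lncRNA classes lie above 0 in the 3 STG and below 0 in the 3 CTG libraries, while protein-coding genes lie between -0.03 and 0.04 throughout.

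The size of the commonest step among low values, which would fall as depth rises if 1 step was 1 fragment, also went with this deviation. Over the 12 libraries r was 0.790 and rho 0.755 (permutation p = 0.00202 and 0.0062, adjusted 0.00667 and 0.0149). Without CTG replicate 3 and CSp5C replicate 3, which had the smallest and the largest step, r was 0.533. Within TG it was 0.731 (exact permutation p = 0.106, n = 6) and within Sp5C 0.845 (exact permutation p = 0.025, n = 6), so the relation rested in part on those libraries. The part of depth in the shift was not tested. For the level of XLOC_000066, r was -0.461 and rho -0.601 (permutation p = 0.131 and 0.0432, adjusted 0.143 and 0.0647), so neither passed after adjustment. Without STG replicate 1 and SSp5C replicate 1, r was -0.2015. Within TG it was -0.743 and within Sp5C -0.209 (exact permutation p = 0.0583 and 0.817, n = 6).

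Some members were clearly present in some libraries of a group and near 0 in others. By a rule made after the data were seen, a member counted as such when its values split by at least 10-fold, with values under 0.05 FPKM set to 0.05, between 2 to 10 high libraries and the rest, other than by tissue. Of the 300 members 29 did so. Of these, 23 belonged to loci with 2 or more transcripts, where another transcript may hold the level, and 6 were the only transcript of their locus. LNC_005444, the most abundant of the 6, stood at 47.6, 0.234 and 1.38 FPKM in STG, 32.1, 1.39 and 34.3 FPKM in CTG, 0.942, 0.330 and 1.88 FPKM in SSp5C, and 45.5, 2.43 and 61.3 FPKM in CSp5C. It was high in 5 libraries, and among the C libraries in replicates 1 and 3 of both tissues. Its CSp5C values all exceeded its SSp5C values (difference 3.84, SE 1.24, adjusted p = 0.755), but CSp5C replicate 2 was close to SSp5C.

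LNC_003334 was listed at 0 in STG replicate 1, CTG replicate 1 and CSp5C replicate 1, while its other TG libraries stood at 6.64 to 9.40 FPKM and its other Sp5C libraries at 11.1 to 15.8 FPKM. LNC_002471 reached 3.53 FPKM in CTG replicate 3 and 4.29 FPKM in CSp5C replicate 3 and was at 0 to 0.259 FPKM in the other 10 libraries. LNC_005522 was listed at 0 in STG replicate 1 and CSp5C replicate 3 and stood at 2.35 to 7.01 FPKM elsewhere. The low libraries were thus not the same for these transcripts. LNC_000013 stood at 17.8 and 15.6 FPKM in STG replicates 2 and 3 and at 13.5 and 16.0 FPKM in CTG replicates 1 and 2, but CTG replicate 3 and STG replicate 1 had none listed above 0, and it did not exceed 1.48 FPKM in Sp5C. LNC_003188, which did not meet the rule, showed a similar pattern, with 1.15 FPKM in CTG replicate 1, 3.70 FPKM in CTG replicate 3 and 0.331 FPKM in CSp5C replicate 1 against 8.62 to 11.4 FPKM in the other libraries.

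**Figure D5:**
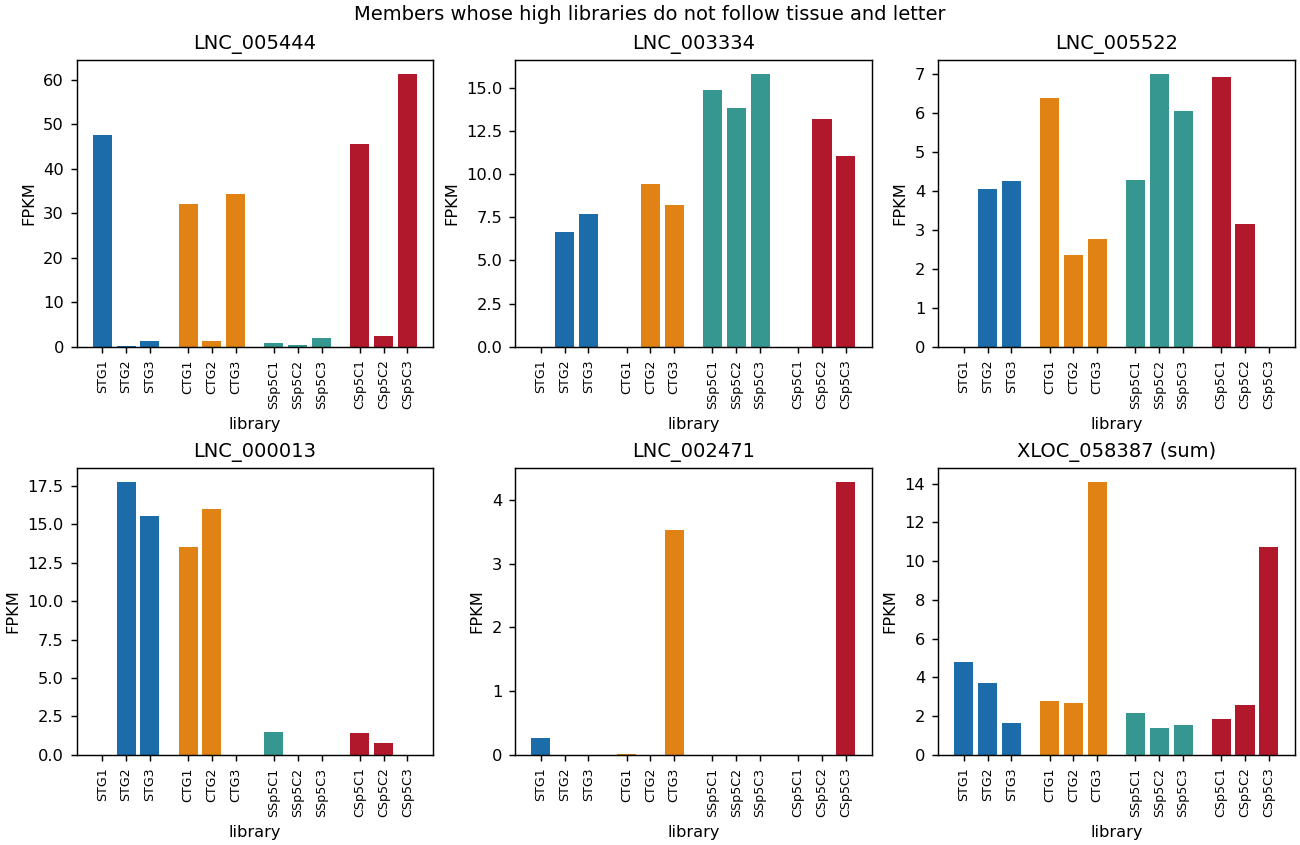
FPKM (y axis, linear, own scale in each panel) by library (x axis, bars coloured by group) for 5 transcripts that are each the only one of their locus, and for the summed locus XLOC_058387. LNC_005444 is high in 5 libraries, LNC_003334 is at 0 in 3, and LNC_002471 and XLOC_058387 are highest in CTG replicate 3 and CSp5C replicate 3.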

How the data were processed

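Total RNA from TG and Sp5C was depleted of ribosomal RNA and made into stranded libraries, per the labels' protocols. The submitters' processing notes name HISAT2, StringTie 1.3.1 and Cuffdiff 2.1.1. Neither genome build nor annotation is given in the sources used here. For every transcript and library the authors deposited an FPKM value, which was used as it stood. Because the assembled table was used without positions, a planned description of neighbouring genes was not made.

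Transcripts with a mean of at least 0.5 FPKM over the libraries compared were tested on log2(FPKM + 0.5), a scale that understates changes of low transcripts, with limma 3.58.1 in R 4.3.3 (variance trend, robust, two-sided). p-values were adjusted by Benjamini-Hochberg over all assembled transcripts tested, with a threshold of 0.05. C against S used the 6 libraries of a tissue, and all other contrasts used 12. XLOC_000066 was tested by exact permutation (SciPy 1.17.1), and correlations by 100000 permutations over 12 libraries or exactly over 6. The fit was tested on simulated data. Tables were read with the R package data.table (version 1.17.8), pandas 2.3.3 and numpy 2.4.6, and figures drawn with matplotlib 3.10.9. Step sizes used lengths of annotated transcripts from GENCODE M21, which matched 2716 of 2789 annotated transcripts by version (97.4%).

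Named transcripts were the 12 highest and 12 lowest between tissues among those that passed without overlap, 1 per locus, 5 in each direction between letters, filled up by the smallest p among transcripts without overlap, and the 3 smallest p in each direction for the difference of effects, with the 10 highest levels per tissue. Others were chosen after their values were seen. The members, marker lists and rules were chosen with earlier results of these data known. Alternatives covered pseudocounts, filters, moderation, scaling, locus sums, a replicate block and leaving out libraries.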

Additional observations from a re-analysis of the deposited data

Results flagged for a closer look

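In 31 sets of 6 libraries of a tissue, 1 for each named transcript with a mean of at least 0.5 FPKM there and for XLOC_000066, 6 held a library farther from the rest than Dixon's 95% critical value allows, where chance gives about 1 in 20. XLOC_000066 was low in STG replicate 1, at 106263 FPKM against 152116 to 174082 FPKM in the other TG libraries. It was high in SSp5C replicate 1, at 211476 FPKM against 124939 to 150424 FPKM in the other Sp5C libraries. STG replicate 1 was high for LNC_005461, at 10.2 FPKM against 1.33 to 3.19 FPKM, and for LNC_004174, at 1.86 FPKM against 0.949 to 1.24 FPKM. LNC_001687 was low in CTG replicate 2, at 1.28 FPKM against 2.25 to 2.60 FPKM. LNC_004700 was high in CSp5C replicate 3, at 2.06 FPKM against 1.46 to 1.64 FPKM. The part of the pituitary genes of STG replicate 1 (2874 FPKM in sum) in its values was not tested.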

How the results depend on the processing

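The 101 tissue calls became 516 without a filter on low values (304 higher, 212 lower in TG, of 2846 tested), 28 with a mean of at least 1 FPKM (of 94) and 47 in the C libraries only. The cause was not tested, except that the filter sets how many transcripts are tested and the C libraries are 6 of 12. Shares of all assembled transcripts are not given for the alternative settings, so their counts describe the members alone. The share of calls higher in TG, 44.6%, was 58.9% without a filter, 68.3% in the S libraries and 29.8% in the C libraries, 55.2% without CSp5C replicate 3, and 51.4% when scaled over assembled transcripts. Leaving out each library gave 88 to 104 tissue calls, and without both STG replicate 1 and CSp5C replicate 3 there were 84. Between CTG and STG all leave-one-out fits gave 0 calls, and 8 came from the fit of all 12 libraries. Between CSp5C and SSp5C they gave 0 to 1, and for the difference of effects 0. The difference of XLOC_000066 ranged from -0.030 to 0.12 between the tissues, where it turned below 0 without CTG replicate 1 (-0.03) or 2 (-0.01), SSp5C replicate 2 (-0.02) or 3 (-0.030), or CSp5C replicate 1 (-0.01). It ranged from 0.10 to 0.37 between CTG and STG, and from -0.19 to 0.19 between CSp5C and SSp5C, where it turned above 0 without SSp5C replicate 1. LNC_000038 turned from 0.81 to -0.39 with locus sums. A replicate block was set by letter and number together in the fits of 12 libraries, and by number alone within a tissue. With it there were 96 tissue calls and 0 in the other comparisons. The numbers were not taken to pair the samples, by a rule that asks every same-numbered pair to correlate over 0.1. Of 18 pairs 10 did (r from -0.42 to 0.42), among them all 3 of CTG with SSp5C, while SSp5C with CSp5C gave -0.42 and -0.30 for replicates 1 and 2. For replicates 1, 2 and 3, STG with SSp5C gave 0.03, 0.28 and 0.08. CTG with CSp5C gave 0.20, 0.03 and 0.42. The rule also covers pairs of unlike letters, so failing it does not settle whether the tissues are paired within a letter. Of 12 libraries 7 correlated best with their own number. Whether the numbers pair the samples is not labelled and was not tested. Scaling over assembled transcripts, leaving out 2 libraries together and the loci with 1 transcript (77 tissue calls, 0 in the other comparisons) were chosen after seeing the data. Depth is uncertain, so no limit of detection is given for members listed at 0.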

Other observations

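Members with neighbouring locus numbers tended to have like tissue differences. Among consecutive tested loci whose numbers were at most 10 apart, 28 of 35 pairs differed between TG and Sp5C in the same direction (80%), with r = 0.83 across pairs. Among 218 pairs more than 10 apart, 50.9% did, with r = 0.11. These are descriptions across loci, which are not independent, and the order that the numbers follow is not given in the sources used here.

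A few members had the same high or low libraries in both tissues among the C libraries. LNC_005444 was high in replicates 1 and 3 and low in replicate 2 of both CTG and CSp5C, LNC_003334 was listed at 0 in replicate 1 of both, and LNC_002471 was above 0.02 FPKM in replicate 3 only. XLOC_058387 had a summed level of 14.1 FPKM in CTG replicate 3 and 10.7 FPKM in CSp5C replicate 3, against 1.36 to 4.81 FPKM in the other libraries. The S libraries did not show this for LNC_003334, which was listed at 0 in STG replicate 1 and stood at 14.8 FPKM in SSp5C replicate 1. What the numbers stand for is not given in the labels, and LNC_005522 went against the pattern, being listed at 0 in CSp5C replicate 3 and at 2.76 FPKM in CTG replicate 3. The pattern was noticed in the data and not tested. The Y-linked genes Ddx3y (15.9 to 23.9 FPKM), Uty (6.60 to 8.75 FPKM) and Kdm5d (2.65 to 4.78 FPKM) were above 0 in every library.

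LNC_000013 shared its TG libraries at 0, STG replicate 1 and CTG replicate 3, with the sperm protamine gene Prm1 and the transition protein gene Tnp1. Prm1 stood at 2.17 to 3.44 FPKM in the other 4 TG libraries and at 2.06 to 2.44 FPKM in SSp5C, and was listed at 0 in all 3 CSp5C libraries, as was Tnp1. In Sp5C LNC_000013 did not follow these genes. It stood at 1.48, 0 and 0 FPKM in SSp5C, where Prm1 was above 0 throughout, and at 1.41, 0.761 and 0 FPKM in CSp5C, where Prm1 was at 0.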
